A study of Mus musculus with 12 samples.

Results

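The genes described are the nuclear and mitochondrial genes of the respiratory chain in mouse mammary tumours. Members were the protein-coding genes whose symbol begins with Nduf, Uqcr, Cox4 to Cox8 or Atp5, or is Sdha, Sdhb, Sdhc or Sdhd, together with the protein-coding genes of the mitochondrial DNA. The rule read only names and gave 111 of the 57186 genes in the table, 98 encoded in the nucleus and 13 in the mitochondria. Of these, 107 passed the filter on low counts, 94 nuclear and all 13 mitochondrial. The 4 that did not were Cox7b2, Cox8c, Ndufb11b and a second gene model of Atp5po.

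4T1 is an established cell line of mouse mammary cancer, negative for hormone receptors and Her2, and its cells were grown as tumours in mice. The Tn group carried 6 tumours of 4T1 cells in which Cosmc had been silenced with CRISPR/Cas9, and the WT group 6 tumours of the parental wild-type 4T1 cells. Cosmc, whose gene symbol is C1galt1c1, helps to fold the galactosyltransferase by which O-linked sugar chains grow past their first sugar, and cells that lack it show the truncated Tn antigen. Poly(A) RNA of whole tumours was sequenced, so each value mixes cancer and host cells, and fewer cells of a type and less RNA per cell cannot be told apart. Strain, sex and age of the hosts and the number of clones behind the silenced line are not given in the sources used here.

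The respiratory chain passes electrons from NADH and succinate to oxygen through complexes I to IV and pumps protons across the inner mitochondrial membrane, and complex V uses the gradient to make ATP. Complexes I, III, IV and V are built from subunits of both genomes, while all subunits of complex II are nuclear. The mitochondrial mRNAs are cut from long transcripts of both strands of the mitochondrial DNA, whereas each nuclear subunit has its own promoter and its protein is imported. Nuclear factors such as NRF1 and GABP are known to bind promoters of many of the nuclear genes.

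Libraries held 113575859 to 156880766 counts each. Both reads of a pair were counted, and counts from 1 to 20 were even numbers in 66.4% to 72.5% of cases per library, so the independent fragments behind a value are fewer than its counts. C1galt1c1 had a lowest, median and highest level of 10.8, 11.1 and 12.9 counts per 1000000 (CPM) in Tn tumours, against 15.5, 20.5 and 23 CPM in WT tumours. It fell by 0.80 ± 0.11 on the log2 scale (SE, n = 6 each; adjusted p = 0.000201, edgeR quasi-likelihood test). Of the marker lists for other cells, all 7 fibroblast genes fell, with summed levels of 2749 to 3977 CPM in Tn tumours and 6871 to 18642 CPM in WT tumours, and 5 of 7 pericyte genes fell (Cspg4, Pdgfrb, Abcc9, Kcnj8 and Notch3). Endothelial genes fell in 4 of 5 cases (Kdr, Tek, Cdh5 and Tie1), with sums of 176 to 336 CPM in Tn and 254 to 451 CPM in WT tumours. All 6 T cell genes rose, with sums of 34.3 to 330 CPM in Tn tumours and 4.22 to 16.3 CPM in WT tumours, as did 5 of 7 macrophage genes (C1qa, C1qb, C1qc, Mrc1 and Adgre1). Of 5 genes of cycling cells, 4 fell (Mki67, Cdk1, Ccnb1 and Top2a), with sums of 856 to 1343 CPM in Tn and 1385 to 1567 CPM in WT tumours. Of 8 adipocyte genes 1 passed, Lep, which fell, and the list had a median log2 fold change of -1.97, with sums of 36.2 to 534 CPM in Tn and 23.8 to 2439.6 CPM in WT tumours. Of 3 tested brown adipocyte genes 1 rose and none fell, with a median of -1.63. The summed levels of that list were higher in Tn tumours, at 8.89 to 52.4 CPM, against 2.05 to 8.84 CPM in WT tumours. None of 13 tested skeletal muscle genes passed the test, with sums of 10.4 to 183 CPM in Tn and 10.9 to 83.0 CPM in WT tumours. With the muscle level as a covariate, 34 nuclear members rose and 4 mitochondria-encoded members fell. The part of the other lists in the results on the respiratory chain was not tested. Single tumours stood apart in some lists, namely Tn tumour 4 in B cell genes (579 CPM, the next Tn tumour having 2.61 CPM), Tn tumour 6 in keratinocyte genes (3010.2 CPM, the next 139 CPM) and WT tumour 6 in adipocyte genes (2439.6 CPM, the next WT tumour having 813 CPM). Values without these 3 libraries are given for the named genes whose call they change.

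Nuclear members were on the whole somewhat more abundant in Tn than in WT tumours, and mitochondria-encoded members less abundant. Of 94 nuclear members tested, 33 rose, 2 fell and 59 did not pass the adjusted threshold of 0.05. Among the 33 is Cox5b-ps (0.31 ± 0.10, adjusted p = 0.0275, edgeR), which was classed as a copy and is not counted in any complex below. Cox5b itself did not pass (0.19 ± 0.08, adjusted p = 0.0933). The 33 make 35.1% of the members, beside 19.5% of all 19255 genes tested that rose and 17.4% that fell. The median log2 fold change (Tn over WT) was 0.20 over the nuclear members and 0.01 over all genes tested, and 79 nuclear members lay above 0 and 15 below. Of the 13 mitochondria-encoded members none rose and 5 fell, with a median of -0.41 and 12 below 0. Of these falls, 3 were among 7 genes with high counts. The other 2 were among 6 genes with 17 to 761 counts per tumour, which also lie in a nuclear copy of mitochondrial DNA. All of these falls lost their call without the 3 libraries that stood apart. Groups did not overlap for 10 nuclear members, all higher in Tn tumours, beside 8.81% of all genes tested, and for no mitochondria-encoded member, beside 8.35% of all genes tested with Tn lower. Among nuclear members that passed, Ndufa4 changed most (0.98) and Ndufa13 next (0.59). The count that rose was 21 with upper-quartile scaling, all of them among the 33, and the median of the nuclear members was then 0.15 with that of all genes at -0.04.

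**Figure D1:**
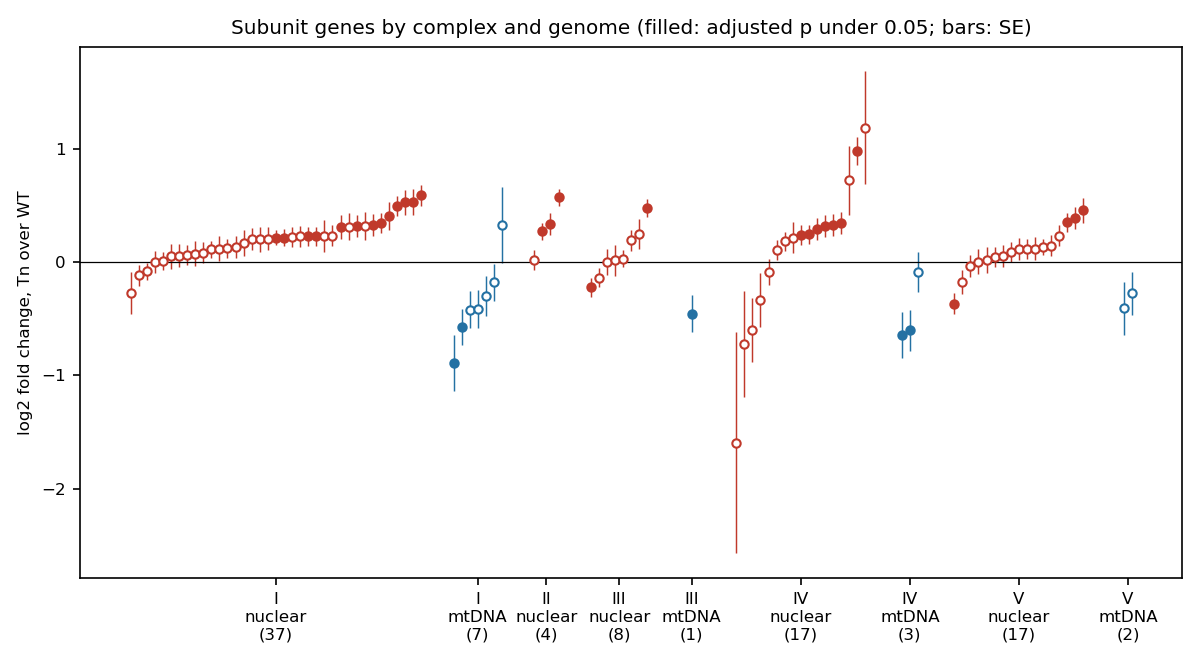
Log2 fold change (Tn over WT, 6 tumours each) of each tested subunit gene, grouped by complex and by genome, with the number of genes in parentheses; bars are standard errors and filled points have an adjusted p under 0.05. Nuclear subunits of complexes I, II and IV lie mostly above 0, those of complexes III and V nearer to 0, and 12 of 13 mitochondria-encoded subunits lie below 0.

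Complex I, the NADH dehydrogenase, had 37 nuclear subunits tested, of which 13 rose (35.1%) and none fell, with a median log2 fold change of 0.22. Counts by complex and of assembly factors can be read against 19.5% of all genes tested that rose and 17.4% that fell. The rise was seen in both kinds of subunit. Of the 7 core subunits, which carry the redox centres and the site of quinone reduction, 3 rose, and of the 30 supernumerary subunits, which surround the core, 10 rose. Ndufs8 (0.35 ± 0.09, adjusted p = 0.0096 by edgeR) and Ndufs3 (0.22 ± 0.07, adjusted p = 0.0224), named after their values were seen, were among the core subunits that rose.

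Ndufa13, a supernumerary subunit that spans the membrane and is also known as GRIM-19, had 92.9, 106 and 117 CPM in Tn tumours (lowest, median, highest), against 58.3, 73.4 and 82.7 CPM in WT tumours. Every Tn tumour lay above every WT tumour, and the log2 fold change was 0.59 ± 0.09 (adjusted p = 0.000611, edgeR). Ndufa6, a small protein of the matrix arm, had 53.1, 62.5 and 72.0 CPM in Tn tumours, against 37.1, 46.3 and 47.9 CPM in WT tumours. It rose by 0.50 ± 0.09, again without overlap (adjusted p = 0.00129). Ndufa5, another subunit of the matrix arm, had 31.4, 33.0 and 39.8 CPM in Tn tumours, against 18.2, 23.5 and 30.1 CPM in WT tumours, and rose by 0.53 ± 0.11 (adjusted p = 0.00316). The highest WT tumour stayed just under the lowest Tn tumour.

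Of the 8 complex I assembly factors among the members, 3 rose and none fell. Ndufaf8, which in human cells acts with Ndufaf5 on a core subunit, rose by 0.56 ± 0.13 (adjusted p = 0.006, edgeR), with 13.4 to 20.1 CPM in Tn and 8.55 to 13.9 CPM in WT tumours. Ndufaf5 (0.27 ± 0.09, adjusted p = 0.0352) and Ndufaf6 (0.31 ± 0.11, adjusted p = 0.0498) stood close to the threshold. The Ndufaf5 call was lost without Tn tumour 1, 2 or 6 or WT tumour 3, 4, 5 or 6 (log2 0.24 to 0.29) and without the 3 libraries that stood apart (0.28, adjusted p = 0.104), and the Ndufaf6 call without any tumour other than Tn 4 or WT 6 (log2 0.28 to 0.33).

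Complex II, succinate dehydrogenase, joins the TCA cycle to the chain and has 4 subunits, of which 3 rose, with a median of 0.31. Sdhc, a membrane anchor that binds haem and quinone, had 192, 221 and 247 CPM in Tn tumours, against 131, 149 and 165 CPM in WT tumours. The groups did not overlap, and the log2 fold change was 0.58 ± 0.07 (adjusted p = 0.000158, edgeR). Sdhb, the iron-sulphur subunit, rose by 0.34 ± 0.10 (adjusted p = 0.0198), and Sdhd, the other anchor, by 0.27 ± 0.08 (adjusted p = 0.0176). In both the groups overlapped. Sdha, the flavoprotein that oxidises succinate, did not pass (0.02 ± 0.09, adjusted p = 0.873), with medians of 212 CPM in Tn and 199 CPM in WT tumours. Per length, Sdha averaged 51.3 CPM per kb in Tn and 50.5 CPM per kb in WT tumours, and Sdhc averaged 68.4 CPM per kb in Tn and 45.9 CPM per kb in WT tumours. The assembly factors of this complex lie outside the name rule. Sdhaf2, Sdhaf3 and Sdhaf4 rose by 0.60 ± 0.07, 0.68 ± 0.10 and 0.63 ± 0.11, while Sdhaf1 did not pass (0.28 ± 0.15, adjusted p = 0.162, edgeR).

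Complex III, the cytochrome bc1 complex, showed no shared shift in the 8 nuclear subunits under the name rule, with 1 rise and 1 fall. Their median was 0.02, and -0.03 under upper-quartile scaling. Cyc1, the cytochrome c1 of this complex, lies outside the rule and was listed with the mobile carriers. It did not pass (-0.005 ± 0.105, adjusted p = 0.975, edgeR). Uqcrh, the hinge protein beside cytochrome c1, had 159, 173 and 188 CPM in Tn tumours, against 108, 128 and 146 CPM in WT tumours. It rose by 0.48 ± 0.08 without overlap (adjusted p = 0.000819, edgeR). Uqcrc2, a core protein of the matrix side, fell by 0.22 ± 0.08 (adjusted p = 0.047), with 81.8 to 102 CPM in Tn and 94.3 to 128 CPM in WT tumours. This fall was lost without Tn tumour 1, 2, 3 or 6 or WT tumour 2, 3, 4, 5 or 6 (log2 -0.24 to -0.16), and without the 3 libraries that stood apart (-0.18, adjusted p = 0.116). Uqcrb did not pass (0.19 ± 0.09, adjusted p = 0.111), but did without WT tumour 6 (0.25, adjusted p = 0.0396) and without the 3 libraries (0.32, adjusted p = 0.0278).

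Complex IV, cytochrome c oxidase, had 11 ubiquitous nuclear subunits, of which 7 rose and none fell, with a median of 0.25. Ndufa4 had the largest change among the nuclear members that passed the test. It was first described with complex I and is now counted as a subunit of complex IV. Its levels were 173, 183 and 233 CPM in Tn tumours, against 79.8, 93.4 and 134 CPM in WT tumours. The highest WT tumour, number 6, lay below every Tn tumour, and the log2 fold change was 0.98 ± 0.12, or 1.98-fold (adjusted p = 0.000129). Cox5a, a matrix subunit, rose by 0.35 ± 0.10 (adjusted p = 0.0165), and its groups overlapped by a single pair, with a lowest Tn value of 69.2 CPM and a highest WT value of 70.2 CPM. Cox7a2l is a factor that joins complexes III and IV into supercomplexes. It had 183 to 224 CPM in Tn and 142 to 166 CPM in WT tumours and rose by 0.39 ± 0.07 (adjusted p = 0.00088, edgeR). Its transcript is partly repeated elsewhere in the genome, with 26.8% of its 100-base windows found unchanged at another place.

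Several subunits of complex IV exist as a common and a tissue-specific isoform. Of the common forms, Cox7a2 rose by 0.33 ± 0.10 (adjusted p = 0.0192), Cox8a by 0.32 ± 0.10 (adjusted p = 0.0231) and Cox4i1 by 0.25 ± 0.09 (adjusted p = 0.0452, edgeR). The Cox8a call was lost without Tn tumour 1 (0.27, adjusted p = 0.0508), and the Cox4i1 call without Tn tumour 1, 2, 3, 5 or 6 or WT tumour 1, 2, 4 or 5 (log2 0.20 to 0.27) and without the 3 libraries that stood apart (0.29, adjusted p = 0.0553). Cox6a1 (-0.09 ± 0.11), Cox6b1 (0.11 ± 0.09) and Cox7b (0.22 ± 0.14) did not pass.

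None of the 6 tested tissue-specific isoforms passed, and their errors were large. Cox6a2 and Cox7a1, forms of heart and skeletal muscle, and Cox6b2, a form of testis, had medians of 0.67, 0.89 and 0.25 CPM in Tn tumours and 0.28, 1.05 and 0.37 CPM in WT tumours. Cox8b, a form of muscle and brown fat, had 0.10, 0.48 and 2.18 CPM in Tn tumours (lowest, median, highest), against 0.08, 1.95 and 7.40 CPM in WT tumours. Cox4i2, a form of lung and pericytes, had 2.26, 3.50 and 7.27 CPM in Tn tumours, against 1.41, 2.38 and 3.79 CPM in WT tumours. Its log2 fold change of 0.72 ± 0.31 missed the threshold (adjusted p = 0.0841, edgeR), which it passed without Tn tumour 3 or WT tumour 2. The pericyte list as a whole was lower in Tn tumours, with sums of 94.6 to 201 CPM, against 214 to 374 CPM in WT tumours. Ndufa4l2, a relative of Ndufa4 that is induced in hypoxia, spread from 3.01 to 24.9 CPM in Tn and from 8.37 to 30.1 CPM in WT tumours (-0.72 ± 0.47, adjusted p = 0.245). Without Tn tumour 6 it was -1.20 (adjusted p = 0.0383). Cox6a2 (1.19 ± 0.50) passed without Tn tumour 2 or WT tumour 6, with values of 1.38 to 1.52, and Cox6b2 (-0.60 ± 0.28) without WT tumour 1 (-0.73). Cox7b2 was at 0 in all 6 WT tumours and reached at most 0.03 CPM in Tn tumours.

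Complex V, ATP synthase, had 17 nuclear subunits tested, of which 3 rose and 1 fell, with a median of 0.12. The shares were 17.65% and 5.88%, beside 19.5% of all genes tested that rose and 17.4% that fell. Rises were thus no more frequent in this complex than over all genes. The risers were small subunits of different regions. Atp5mg, a membrane subunit, had 7.96 to 12.4 CPM in Tn and 6.57 to 7.27 CPM in WT tumours and rose by 0.46 ± 0.11 (adjusted p = 0.00573, edgeR), though 57.4% of its windows recur elsewhere in the genome. Atp5pd of the peripheral stalk rose by 0.35 ± 0.08 (adjusted p = 0.00589) and Atp5f1e of the central stalk by 0.39 ± 0.10 (adjusted p = 0.00791). Atp5f1b, the catalytic beta subunit, went the other way and is named after its values were seen. It had 1040.4, 1154 and 1277 CPM in Tn tumours, against 1211, 1516 and 1794 CPM in WT tumours, with an overlap of the lowest WT tumour only. Its log2 fold change was -0.37 ± 0.10 (adjusted p = 0.00998). The 3 genes Atp5mc1, Atp5mc2 and Atp5mc3 encode the same mature ring subunit and did not pass (0.15 ± 0.10, 0.12 ± 0.10 and 0.23 ± 0.09), the last one doing so without WT tumour 6 (0.29, adjusted p = 0.0257). Atp5if1, the inhibitor of ATP hydrolysis, rose by 0.34 ± 0.11 (adjusted p = 0.0304), a call lost without Tn tumour 1 or 3 or WT tumour 1, 2 or 6 (log2 0.28 to 0.33).

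**Figure D2:**
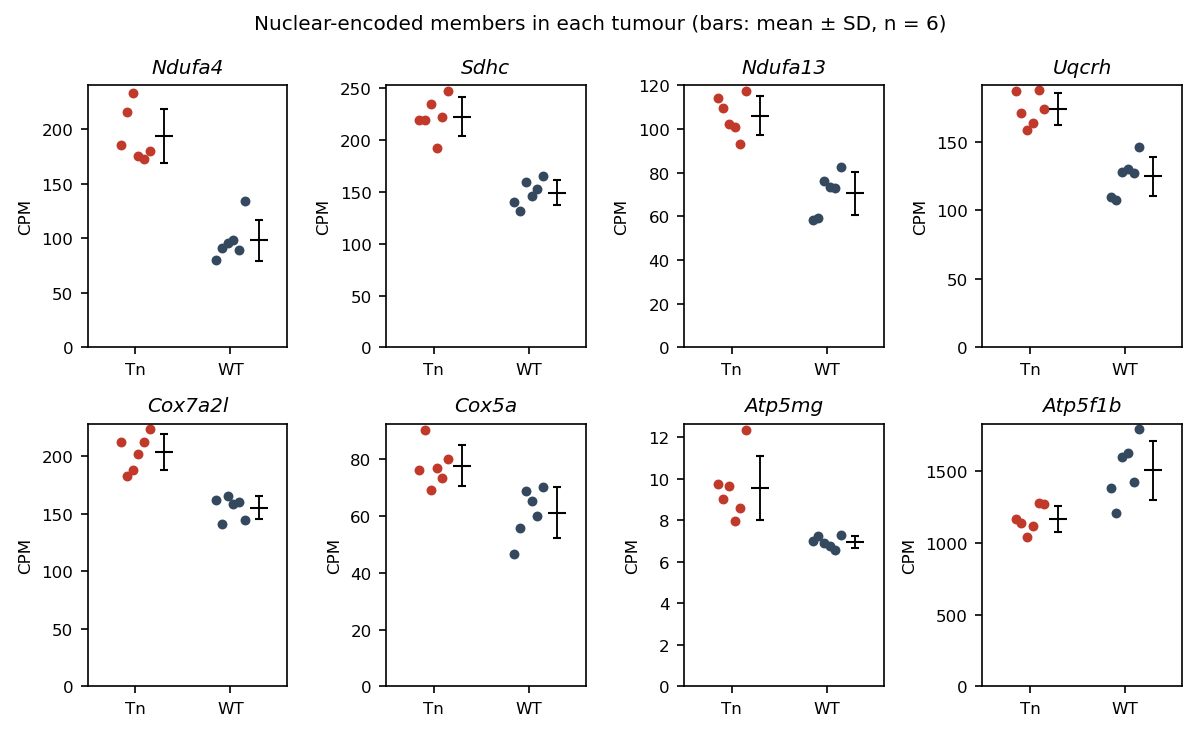
CPM of 8 nuclear members in each of the 6 Tn and 6 WT tumours (points), with mean and SD beside them. Ndufa4, Sdhc, Ndufa13, Uqcrh, Cox7a2l and Atp5mg show no overlap of the groups, Cox5a overlaps narrowly, and Atp5f1b is lower in Tn tumours.

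The neighbourhood of some of these genes moved in the same direction. The 24 tested genes within 5 Mb of Ndufa4, which lies at chr6:11897630-11907496 (GRCm39), had a median log2 fold change of 0.47, and the 123 around Sdhc, at chr1:170954732-170978223, one of 0.42. Around Atp5f1b, at chr10:127919132-127926261, 109 genes had a median of -0.15, and chromosome 10 as a whole one of -0.21. The neighbours of other risers had medians of 0.22 (Ndufa13, 153 genes), 0.19 (Uqcrh, 114 genes), 0.07 (Ndufa6, 189 genes) and -0.13 (Ndufa5, 35 genes). Whether a gain or loss of chromosome segments had a part was not tested. The 79 tested nuclear members with at most 10% of windows repeated elsewhere held 26 of the rises and both falls, with a median of 0.20, and the 15 others held 7 rises, with a median of 0.22. By exon length, the median over nuclear members was 0.24 up to 1000 bases and 0.07 above 4000 bases, and over all genes 0.05 and -0.04.

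The mitochondria-encoded genes were put into 2 classes by how much of each is found unchanged in the nuclear genome. The longest nuclear copy of mitochondrial DNA in GRCm39, at chr1:24650616-24655269 on the minus strand, matches chrM:6390-11042 over 4654 aligned bases at 99.94% identity, with 3 differences. It holds all of mt-Co2, mt-Atp8, mt-Atp6, mt-Co3, mt-Nd3 and mt-Nd4l. A read from such a stretch matches both places, and per the file headers the authors counted without the setting that keeps multi-mapping reads. The stretches below show what such a read would see. The first pair is the middle of mt-Co2, chrM:7325-7384 and its nuclear counterpart chr1:24654275-24654334, with no difference. The second pair spans the start of mt-Nd3, chrM:9436-9486 and chr1:24652173-24652223, with the difference T9461C in capitals, counted along the mitochondrial DNA with its base first.
mt-Co2, mitochondrial: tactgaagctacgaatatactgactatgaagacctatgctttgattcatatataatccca
mt-Co2, nuclear copy: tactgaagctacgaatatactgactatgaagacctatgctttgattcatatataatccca
mt-Nd3, mitochondrial: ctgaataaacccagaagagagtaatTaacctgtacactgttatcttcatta
mt-Nd3, nuclear copy: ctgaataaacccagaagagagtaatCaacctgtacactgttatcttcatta

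These 6 genes averaged 0.65 to 5.57 CPM per kb in Tn tumours and 1.22 to 5.90 CPM per kb in WT tumours. The other 7 averaged 429 to 2707 CPM per kb in Tn tumours and 638 to 4110 CPM per kb in WT tumours. For mt-Co3, which encodes a core subunit of complex IV just as mt-Co1 does, the means were 5.57 CPM per kb in Tn and 5.90 CPM per kb in WT tumours, and those of mt-Co1 were 2707 CPM per kb in Tn and 4110 CPM per kb in WT tumours. mt-Nd4 has 60.8% and mt-Co1 30.8% of its windows in a nuclear copy, while their CPM per kb is over the full length. Whether reads from these parts were left out of the counts was not tested, since the reads were not examined. The same holds for the 6 low genes. Their levels rest on 17 to 761 counts per tumour, against 30612 to 1088282 for the 7 others, and their differences are given apart.

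**Figure D3:**
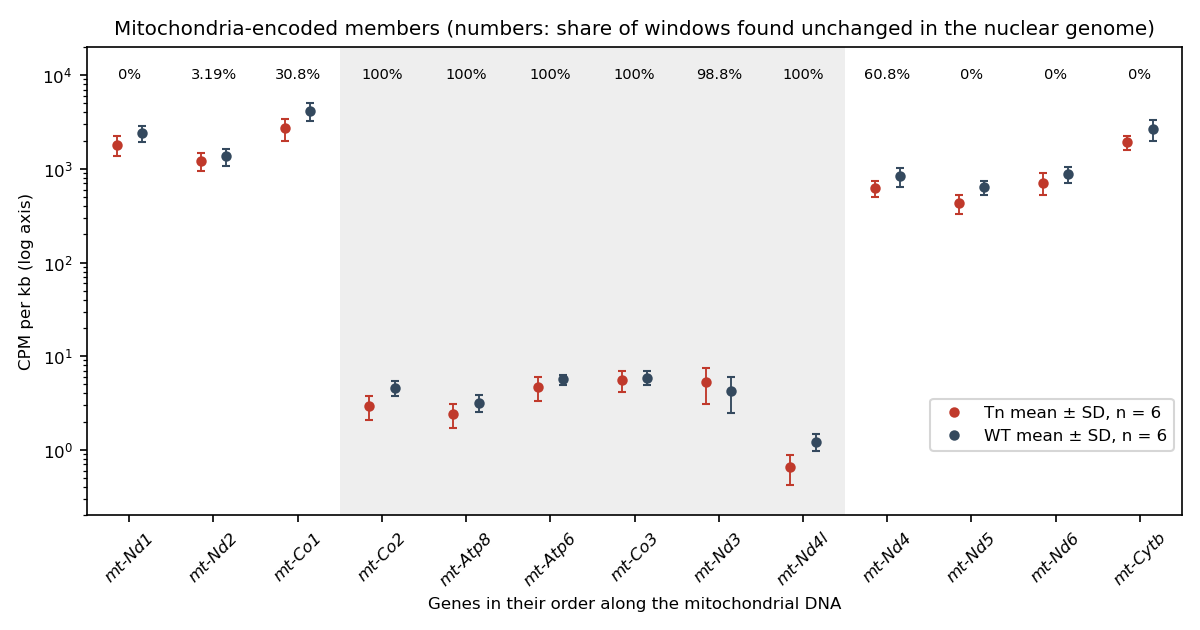
Mean CPM per kb (log axis, bars are SD over 6 tumours) of the 13 mitochondria-encoded members in their order along the mitochondrial DNA, for Tn and WT tumours; the number above each gene is the share of its 100-base windows found unchanged in the nuclear genome. The 6 shaded genes, with shares of 98.8% or more, lie below 6 CPM per kb, and the 7 others above 400 CPM per kb.

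All 7 high-count mitochondrial genes were lower on average in Tn tumours, with a median log2 fold change of -0.42, and 3 of them fell by the test. The groups overlapped for each. mt-Co1, the catalytic subunit of complex IV (chrM:5328-6872), had 2703, 4074 and 5878 CPM in Tn tumours, against 4593, 6080.3 and 8677 CPM in WT tumours. Only Tn tumours 2 and 5 reached the range of WT tumours, and the log2 fold change was -0.60 ± 0.18 (adjusted p = 0.0222, edgeR). mt-Nd5, a proton-pumping subunit of complex I, had 548, 753 and 1022 CPM in Tn tumours, against 891, 1124 and 1497 CPM in WT tumours. It fell by 0.57 ± 0.16 (adjusted p = 0.0145). mt-Cytb, the cytochrome b of complex III, had 1699.9, 2276 and 2613 CPM in Tn tumours, against 2205, 2993 and 4219 CPM in WT tumours, a fall of 0.46 ± 0.16 (adjusted p = 0.0446). The mt-Cytb call was lost without Tn tumour 1, 3, 4 or 6 or WT tumour 2, 3, 5 or 6 (log2 -0.47 to -0.34).

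The remaining complex I genes did not pass. mt-Nd1 (-0.41 ± 0.17, adjusted p = 0.0736) and mt-Nd4 (-0.42 ± 0.16, adjusted p = 0.0607, edgeR) were near the threshold, which both passed without Tn tumour 5, and mt-Nd4 also without WT tumour 4 (-0.51 for mt-Nd1, -0.49 for mt-Nd4). mt-Nd2 (-0.18 ± 0.16) and mt-Nd6 (-0.30 ± 0.18) were further from it. mt-Nd6 lies on the opposite strand and its end overlaps mt-Nd5, and strand was not used in counting. Of the 6 genes in the nuclear copy, mt-Nd4l (-0.89 ± 0.25, adjusted p = 0.0138) and mt-Co2 (-0.64 ± 0.20, adjusted p = 0.0264) fell, with medians of 0.18 and 2.03 CPM in Tn tumours and 0.36 and 3.06 CPM in WT tumours. The mt-Co2 call was lost without Tn tumour 3 or 4 or WT tumour 3 or 6 (log2 -0.60 to -0.55). mt-Nd3 (0.33 ± 0.34), mt-Co3 (-0.08 ± 0.18), mt-Atp6 (-0.28 ± 0.19) and mt-Atp8 (-0.41 ± 0.24) did not pass.

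The number of mitochondrial calls depended on the tumours used. Those of mt-Co1, mt-Nd5 and mt-Nd4l passed whichever single tumour was left out, while those of mt-Cytb and mt-Co2 were lost without some single tumours. The number that fell was 3 without Tn tumour 3, Tn tumour 4, WT tumour 3 or WT tumour 6, and 7 without Tn tumour 5. Without the 3 libraries that stood apart it was 0, and mt-Co1 was then -0.42 (adjusted p = 0.149), mt-Nd5 -0.37 (adjusted p = 0.129), mt-Cytb -0.27 (adjusted p = 0.243), mt-Co2 -0.49 (adjusted p = 0.134) and mt-Nd4l -0.83 (adjusted p = 0.0807, edgeR). The median of the 7 genes was -0.23 in that setting, with mt-Nd2 at 0.04. The whole set of 13 genes took 1.12 ± 0.24% of the counts in Tn tumours and 1.61 ± 0.32% in WT tumours (SD, n = 6 each). The ribosomal RNAs of the mitochondria, which are not members, did not share the direction of the mRNAs in their means. mt-Rnr1 averaged 268 ± 85.3 CPM in Tn and 191 ± 44.8 CPM in WT tumours, and mt-Rnr2 259 ± 90.1 CPM in Tn and 227 ± 46.4 CPM in WT tumours, with overlap of the groups in both. The libraries were selected for poly(A) RNA, so the rRNA values are not levels of total rRNA.

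**Figure D4:**
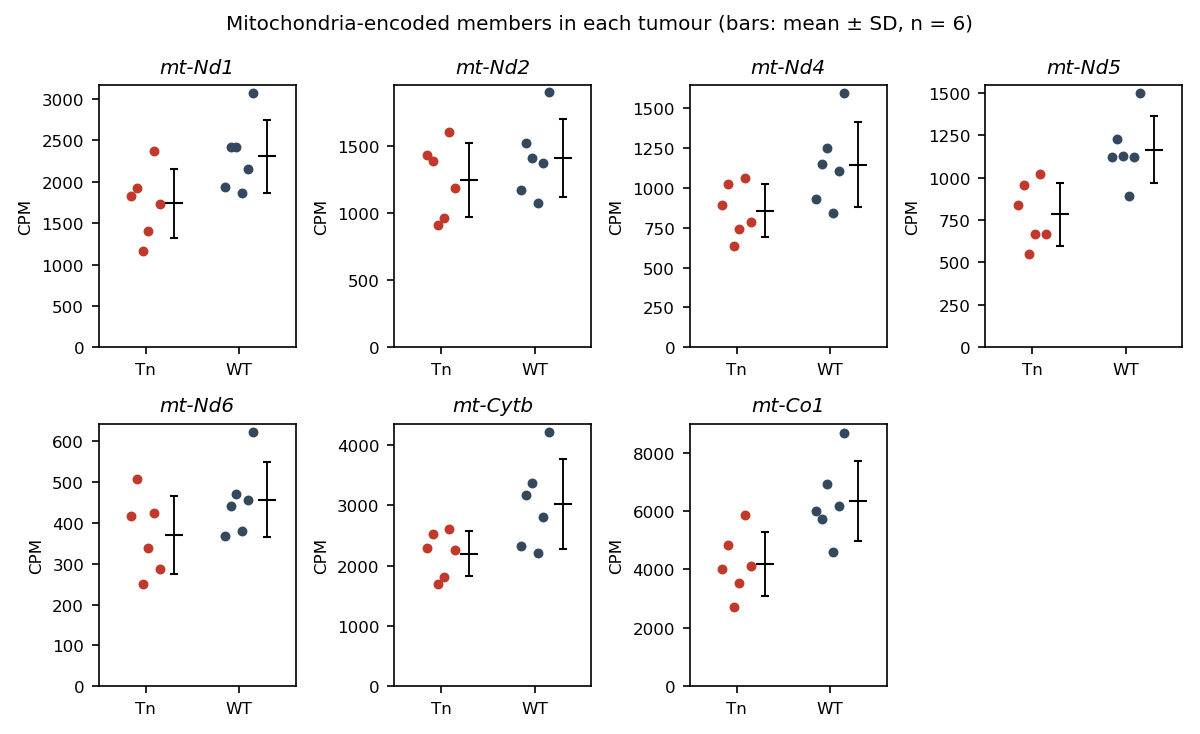
CPM of the 7 high-count mitochondria-encoded members in each of the 6 Tn and 6 WT tumours (points), with mean and SD beside them. The Tn mean is lower in each panel, the groups overlap in each, and WT tumour 6 is the highest of the 12 tumours for all 7 genes.

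The balance of both genomes was described for each tumour by the mean log2 CPM of the 94 nuclear members minus that of the 7 high-count mitochondrial members. It averaged -4.59 ± 0.28 in Tn and -5.18 ± 0.25 in WT tumours (SD, n = 6 each), a difference of 0.59 towards the nuclear genes in Tn tumours. Tn tumours ran from -4.98 to -4.22 and WT tumours from -5.38 to -4.71, and only WT tumour 4 lay within the Tn range. On the mitochondrial side the mean was 10.26 ± 0.32 in Tn and 10.69 ± 0.28 in WT tumours, a difference of -0.43. The nuclear side averaged 5.68 ± 0.07 in Tn and 5.51 ± 0.20 in WT tumours, a difference of 0.17. Without the 3 libraries that stood apart, the differences were -0.26 on the mitochondrial side and 0.21 on the nuclear side, and that of the balance was 0.47. Nuclear levels spread less among Tn tumours, from 5.57 to 5.75, than among WT tumours, from 5.22 in WT tumour 1 to 5.77 in WT tumour 6. WT tumour 6 was the highest of all 12 tumours, so the rise of the nuclear members was not a separation of the groups.

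By complex, the nuclear mean minus the mitochondrial mean was higher in Tn tumours by 0.60 for complex I, 0.52 for complex III (without Cyc1) and 0.91 for complex IV. The last one is for the 11 ubiquitous subunits against mt-Co1 alone. With the 6 tested isoforms included the complex IV difference was 0.74. For the ubiquitous subunits it averaged -4.87 ± 0.37 in Tn and -5.78 ± 0.29 in WT tumours, and WT tumour 4 (-5.23) and Tn tumour 5 (-5.44) were the only ones to cross. For complex IV, group means per length can be set beside each other for a nuclear and a mitochondrial subunit. Ndufa4 averaged 140.1 CPM per kb in Tn and 70.9 CPM per kb in WT tumours, while mt-Co1 averaged 2707 CPM per kb in Tn and 4110 CPM per kb in WT tumours. The length is that of all exons, 1381 bases for Ndufa4, while the transcript used to seek its copies has 529. The level of Ndufa4 per kb beside mt-Co1 depends on that choice.

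**Figure D5:**
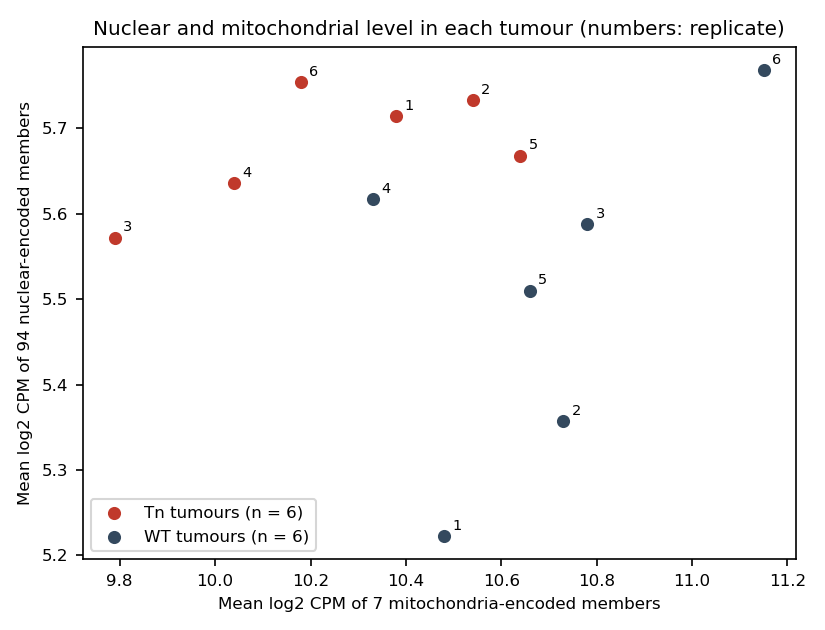
Mean log2 CPM of the 94 nuclear members against that of the 7 high-count mitochondria-encoded members, 1 point per tumour with its replicate number. Tn tumours lie between 9.79 and 10.64 on the mitochondrial axis and between 5.57 and 5.75 on the nuclear axis. WT tumours lie between 10.33 and 11.15 and between 5.22 and 5.77. The groups overlap on each axis, and WT tumour 6 is highest on both axes.

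Promoters are shown because the nuclear members are scattered over the chromosomes and each has its own start site. RefSeq windows (build GRCm38.p6, from 250 bases before to 50 after the start) were found for 63 of the nuclear members. The letters GCGCATG, the core of the NRF1 motif, were in windows of 12 of the 63 (19%) and of 4.41% of all 27025 genes with a window, on either strand. CCGGAAG, a core of the motif of GABP and other ETS factors, was in 13 (20.6%) and in 9.93% of all. Of the 13 tested members with CCGGAAG, 8 rose and none fell, and of the 49 without it 14 rose and none fell. Of the 12 with GCGCATG, 5 rose, and of the 50 without it 17 rose. Neither nuclear member that fell had a window. Below are the 250 bases before the start of 3 members that rose, with any of these letters in capitals. Uqcrh (chr4:116075071-116075320, minus strand) holds CCGGAAG read on the opposite strand, Ndufa11 (chr17:56717512-56717761, plus strand), a complex I subunit that rose by 0.41 ± 0.12, holds GCGCATG on both strands, with the copies overlapping in 1 palindrome, and Ndufa4 (chr6:11907451-11907700, minus strand) holds neither.
Uqcrh: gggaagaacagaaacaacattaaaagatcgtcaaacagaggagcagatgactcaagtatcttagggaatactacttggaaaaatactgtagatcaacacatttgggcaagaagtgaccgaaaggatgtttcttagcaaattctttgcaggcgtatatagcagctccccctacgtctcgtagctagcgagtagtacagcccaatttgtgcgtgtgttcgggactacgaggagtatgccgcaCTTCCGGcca
Ndufa11: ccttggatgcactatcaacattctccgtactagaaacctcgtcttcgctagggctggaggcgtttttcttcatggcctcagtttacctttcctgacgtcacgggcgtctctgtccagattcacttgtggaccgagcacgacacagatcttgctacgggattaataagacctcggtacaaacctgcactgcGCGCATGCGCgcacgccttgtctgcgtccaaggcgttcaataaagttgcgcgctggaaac
Ndufa4: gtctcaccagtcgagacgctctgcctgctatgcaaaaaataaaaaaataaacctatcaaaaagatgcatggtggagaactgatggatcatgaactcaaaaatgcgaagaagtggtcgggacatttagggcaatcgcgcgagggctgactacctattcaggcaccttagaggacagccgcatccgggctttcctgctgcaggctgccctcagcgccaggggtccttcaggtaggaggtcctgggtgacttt

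Genes around the chain, from 8 further lists, had list medians from -0.17 to 0.17, beside 0.20 over the nuclear members. The highest was that of the assembly factors outside the name rule. In each list the count can be read against 19.5% of all genes tested that rose and 17.4% that fell. Of 12 tested regulators of mitochondrial biogenesis none rose and 4 fell, with a median of -0.17. They were Gabpa, the DNA-binding subunit of GABP (-0.33 ± 0.07, adjusted p = 0.00242, edgeR), Ppara, a receptor that drives fat oxidation (-1.59 ± 0.43, adjusted p = 0.0121, at 0.08 CPM on average in Tn and 0.23 CPM in WT tumours), Yy1 (-0.19 ± 0.07) and Myc (-0.28 ± 0.10). The calls of Yy1 and Myc were lost when any 1 of 9 and of 10 tumours was left out, with values of -0.20 to -0.15 for Yy1 and -0.30 to -0.22 for Myc.

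For transcription and upkeep of the mitochondrial DNA, 5 of 17 genes rose and 1 fell, with a median of 0.06. Tk2 and Dguok, the kinases that supply deoxynucleotides within the organelle, rose most. Tk2 averaged 31.1 CPM in Tn and 17.97 CPM in WT tumours (0.79 ± 0.07, adjusted p = 1.41e-05, edgeR), and Dguok 25.1 CPM in Tn and 15.9 CPM in WT tumours (0.66 ± 0.07, adjusted p = 6.06e-05). Mterf3 (0.40 ± 0.08), a factor known to repress mitochondrial transcription, Ssbp1 (0.25 ± 0.07), which coats single-stranded DNA, and Tfb2m (0.35 ± 0.11), an initiation factor, rose, while Polg, the DNA polymerase, fell (-0.34 ± 0.10, adjusted p = 0.0184). The Tfb2m call was lost without Tn tumour 3, 5 or 6 or WT tumour 2, 3 or 5 (log2 0.29 to 0.35).

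Of 21 genes for processing and stability of mitochondrial RNA, 4 rose and 3 fell, with a median of 0.01. Angel2 (0.41 ± 0.05, adjusted p = 0.000152, edgeR), Rexo2, which degrades short RNA (0.70 ± 0.11, adjusted p = 0.000496), Fastk (0.23 ± 0.06), which acts on the mt-Nd6 mRNA, and Ptcd2 (0.22 ± 0.07) rose. Grsf1 of the RNA granules (-0.31 ± 0.08, adjusted p = 0.00756), Pnpt1 (-0.25 ± 0.06) and Supv3l1 (-0.31 ± 0.09), which form the RNA-degrading complex, fell. Without the 3 libraries that stood apart Supv3l1 did not pass (-0.28, adjusted p = 0.0726), and Ptcd2 did not without Tn tumour 6 or WT tumour 5 (log2 0.20).

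Of 42 tested assembly factors outside the name rule 13 rose and 3 fell, with a median of 0.17. The rises were not confined to complex II, whose factors are given above, and the other risers are not named here. The falls were Cox15 (-0.23 ± 0.07), Acad9 (-0.26 ± 0.08) and Cox18 (-0.27 ± 0.09). Each fall was lost without some single tumours of both groups (5 tumours for Cox15 and for Acad9 and 8 for Cox18, with values from -0.28 to -0.19). Of 22 genes for the mobile carriers 1 rose (Etfa, 0.28 ± 0.09, lost without WT tumour 1, 4 or 5 at 0.26 to 0.27) and 4 fell. Coq3, a methyltransferase of ubiquinone synthesis, averaged 5.75 CPM in Tn and 15.9 CPM in WT tumours, a fall of 1.47 ± 0.14 (adjusted p = 2.61e-05, edgeR) and, after Ppara, the largest fall past the threshold in the 8 lists. Coq10b (-0.47 ± 0.09), Etfdh (-0.35 ± 0.07) and Pdss1 (-0.39 ± 0.12) also fell, Pdss1 not without the 3 libraries (-0.38, adjusted p = 0.0695).

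In the TCA cycle, 1 of 13 genes rose and 3 fell, with a median of -0.07. Cs, citrate synthase, averaged 227 CPM in Tn and 321 CPM in WT tumours (-0.50 ± 0.09, adjusted p = 0.00145, edgeR), without overlap. Idh3a (-0.40 ± 0.08) and Dlst (-0.19 ± 0.06) fell, and Fh1, fumarase, rose (0.31 ± 0.09). The Dlst call was lost without any 1 of 7 tumours (log2 -0.18 to -0.15). Of 12 genes of the pyruvate dehydrogenase complex, with a median of -0.12, the phosphatase subunit Pdp2 rose (0.30 ± 0.10), Pdp1 fell (-0.37 ± 0.13) and their regulator Pdpr did not pass (-0.34, adjusted p = 0.0592, and 0.0485 without WT tumour 3). The Pdp2 call was lost without any 1 of 7 tumours (log2 0.26 to 0.31) and that of Pdp1 without any 1 of 10 (log2 -0.39 to -0.30). Of 25 genes of import and chaperones, with a median of 0.06, Phb2 (0.24 ± 0.07) and Timm22 (0.16 ± 0.06) rose and Tomm22, the central import receptor of the outer membrane (-0.54 ± 0.11, adjusted p = 0.0031), and Pmpca (-0.20 ± 0.07) fell. The calls of Timm22 and Pmpca were lost without any 1 of 7 and of 8 tumours (log2 0.14 to 0.17 for Timm22 and -0.21 to -0.16 for Pmpca). Without the 3 libraries that stood apart, the calls were also lost for Yy1 (-0.18), Myc (-0.21), Ptcd2 (0.20), Acad9 (-0.21), Cox15 (-0.22), Cox18 (-0.23), Dlst (-0.12), Pdp2 (0.33), Timm22 (0.17) and Pmpca (-0.19), with adjusted p of 0.0596 (Acad9) to 0.214 (Dlst) by edgeR.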

How the data were processed

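Poly(A) RNA of 12 tumours, 6 per group, was sequenced in 1 batch per the labels. Reads were trimmed with fastp 0.23 and aligned to GRCm39 with STAR 2.7.11a per the submitters' processing notes. The authors deposited counts, not normalized, for Ensembl 112 genes, made per the file headers with featureCounts of Subread 2.1.1 without strand, with both ends mapped and each read of a pair counted. The gene length in the table is another value deposited by the authors, in bases, and was used for CPM per kb. Symbols came from GENCODE M39 for 56630 of 57186 identifiers.

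Counts were tested with edgeR 4.0.16 in R 4.3.3 (TMM, filterByExpr, robust quasi-likelihood fit, two-sided, Benjamini-Hochberg adjustment over all 19255 genes tested, threshold 0.05). CPM are TMM-scaled. Log2 levels used a prior count of 2, and the SE is the log2 fold change over the root of F. The labels call the tumours biological replicates without naming the mice, so p-values set the group difference against the spread between these samples. They do not cover the spread between silenced lines or clones. No pair of libraries agreed within sampling noise (lowest chi-square over its degrees of freedom 41.4). Alternatives were RLE and upper-quartile scaling, library sizes without mitochondria-encoded genes, no filter, a mean CPM of 1, a replicate block, a muscle covariate, DESeq2 1.42.0, limma voom 3.58.1, and leaving out each tumour, 22 in all with 1 chosen after seeing the data. Copies were sought with BLAST in windows of 100 bases. Genes named are C1galt1c1, all mitochondria-encoded members, the 3 smallest p in each complex, among assembly factors and in each further list, the largest rise and fall, and isoform pairs; others were named after their values were seen, and 1 gene is not reported here by name. Members and lists were chosen with earlier results of these data known.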

Additional observations from a re-analysis of the deposited data

Results flagged for a closer look

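In 12 of 186 checks of a named gene in a group of 6 tumours, 1 tumour stood apart, measured as its gap to the nearest other tumour over the whole range on the log2 scale, past the critical value for 6 samples. Chance flags about 1 in 20 such groups. C1galt1c1 was highest in Tn tumour 1 (12.9 CPM, against 10.8 to 11.2 CPM in the other Tn tumours, gap 0.785), still below every WT tumour.

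Among the members, mt-Nd4l was highest in Tn tumour 5 (gap 0.627), Ndufa5 in Tn tumour 2 (gap 0.693), and Cox6b1 and Ndufa11 in Tn tumour 6 (gaps 0.639 and 0.763). Ndufa11 had 43.4 CPM there, against 30.6 to 33.2 CPM in the other Tn tumours. Atp5f1e was lowest in Tn tumour 3 (80.1 CPM, against 99.0 to 111 CPM, gap 0.641) and Cox7a1 in Tn tumour 4 (0.41 CPM, against 0.77 to 1.00 CPM, gap 0.703). Cox7b was lowest in WT tumour 1 (70.6 CPM, against 92.9 to 107 CPM, gap 0.659), the tumour with the lowest mean level of the nuclear members.

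In the further lists, Angel2 was highest in Tn tumour 2 (gap 0.626) and Ppara in WT tumour 6 (0.60 CPM, against 0.12 to 0.21 CPM in the other WT tumours, gap 0.655). Tomm22 was lowest in Tn tumour 2 (gap 0.628) and Pnpt1 in Tn tumour 1 (gap 0.727).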

How the results depend on the processing

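The count of nuclear members that rose, 33, was 21 with upper-quartile scaling and 20 with a replicate block, and 24 to 42 when 1 tumour was left out, with 42 without WT tumour 6. Of the 33, 19 remained with the block, 29 without the 3 libraries that stood apart, and all 33 with DESeq2 and limma voom. The 2 nuclear members that fell were 1 with no filter, with limma voom and without the 3 libraries, and 1 to 4 with 1 tumour left out. The 5 mitochondria-encoded members that fell were 7 with upper-quartile scaling and with DESeq2, 6 with a filter at a mean CPM of 1, 3 with no filter, 0 without the 3 libraries (chosen once the data had been seen) and 3 to 7 with 1 tumour left out. The complex II median was 0.40 without the 3 libraries. The cause of these shifts was not tested.

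C1galt1c1 stayed between -0.85 and -0.74 and passed in all 22 alternatives, and so did Ndufa4 (0.93 to 1.17), Sdhc (0.52 to 0.63), Ndufa13, Uqcrh, Cox7a2l and Atp5f1b. None of the 40 members called, 33 rises and 7 falls, changed sign in any of these alternatives. mt-Nd2, which did not pass, ran from -0.26 to 0.04. Tumours of the same number did not vary together (correlations of -0.12 to 0.16, own number best for 1 of 6). These correlations give no sign of pairing by number, but cannot show that the numbers share nothing.

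The 6 genes in the nuclear copy rest on 17 to 761 counts per tumour. Median standard errors were 0.22 for these, 0.39 for the tissue-specific isoforms and 0.10 over all nuclear members.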
